A study of Homo sapiens with 8 samples.

Results

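The 10 integrin subunit genes ITGA1, ITGA2, ITGA3, ITGA5, ITGA6, ITGAV, ITGB1, ITGB3, ITGB4 and ITGB5 were followed in hypoxic hepatocellular carcinoma cells after depletion of the histone demethylase LSD1. They were chosen by gene symbol and correspond to 10 of the 34602 gene rows of a bead array table, 1 row per symbol. The cells were Huh-1, an established human hepatocellular carcinoma line. The siLSD1 cultures had been reverse-transfected with an siRNA against LSD1 and the siControl cultures with a control siRNA, and 48 h later both were placed in 1% O2 for 24 h, so that hypoxia was shared by every sample. Each group had 2 biological replicates with 2 arrays each, 8 arrays in all. The sources used here do not give the siRNA sequences or say how the cultures were separated, so the spread between replicates may be partly technical. Cultures at normal oxygen were not analysed here.

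Integrins are cell surface receptors made of an alpha and a beta subunit that anchor cells to the extracellular matrix and signal through proteins bound to their short cytoplasmic tails. The beta 1 subunit is the shared partner of many alpha subunits and gives receptors for collagen (with alpha 1 or alpha 2), laminin (with alpha 3 or alpha 6) and fibronectin (with alpha 5). Alpha V pairs with beta 1, beta 3 or beta 5 in receptors for vitronectin and other ligands with an RGD sequence, and alpha 6 with beta 4 forms the laminin receptor of hemidesmosomes. Normal hepatocytes are known to carry alpha 1 beta 1 and alpha 5 beta 1, and the laminin-binding subunits are known from liver tumours.

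The target of the siRNA, KDM1A (the gene of LSD1, named AOF2 in the table), was examined first. Its normalized log2 level averaged 10.48 ± 0.06 in siLSD1 and 11.97 ± 0.24 in siControl (SD, n = 2 each), a log2 difference of -1.48 ± 0.17 (standard error, as in all differences that follow). The brightest siLSD1 array was dimmer than the dimmest siControl array. Between 12860 and 19896 rows per array were brighter than every one of the 92 ERCC control rows, which reached a signal of 164 to 228 depending on the array, and 16049 rows that were so on at least 4 arrays were tested. Replicates of siLSD1 were closer to each other than those of siControl, with an SD of the log2 difference over genes of 0.18 in siLSD1 and 0.48 in siControl. All 8 hepatocyte markers and all 4 epithelial markers were above the ERCC rows on at least 4 arrays. Of markers of other cells, 1 of 6 for fibroblasts or stellate cells (LUM), 0 of 5 for endothelium and 3 of 7 for leukocytes or platelets (CD68, LYZ and ITGB2) were. The summed signal of the 7 leukocyte or platelet markers was 2723 to 3005 on siLSD1 arrays and 2995 to 3659 on siControl arrays. Of these 7 markers, 4 were above the ERCC rows on no array. The part of this signal in the results below was not tested.

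The beta 1 and alpha 3 subunits were measured at higher levels in siLSD1 than in siControl, and alpha 1, alpha 5 and alpha 6 at lower levels. ITGB1 stood 1.93-fold higher and ITGA3 1.64-fold higher, whereas ITGA6 stood 1.54-fold lower, ITGA1 1.49-fold lower and ITGA5 1.40-fold lower. Under neqc, another background correction and normalization, ITGA3, ITGA6 and ITGA1 stood at only 0.06, -0.07 and -0.11 on the log2 scale. In ITGB1, ITGA3, ITGA6, ITGA1 and ITGA5 all 4 siLSD1 arrays lay on the same side of all 4 siControl arrays. None of the 9 tested subunits passed limma's test with Benjamini-Hochberg adjustment over all 16049 genes at 0.05 (0 of 9, against 0% of all genes, where the smallest adjusted p was 0.199, shared by KDM1A and other genes). At an unadjusted p under 0.05 there were 2 higher and 3 lower subunits, against 5.72% and 5.74% of all genes. The groups did not overlap in 5 of 9 subunits, against 23.5% of all genes (12% higher and 11.5% lower). The median size of the log2 difference, without its sign, was 0.48 over the 9 subunits and 0.17 over all tested genes, and the signed medians were 0.09 and 0.01. A two-sided exact permutation test of 2 samples against 2 cannot give a p below 0.333, so it could call no single gene here. Precision is limited by how few biological samples there are. In such bulk samples fewer expressing cells and less RNA per cell cannot be told apart.

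**Figure D1:**
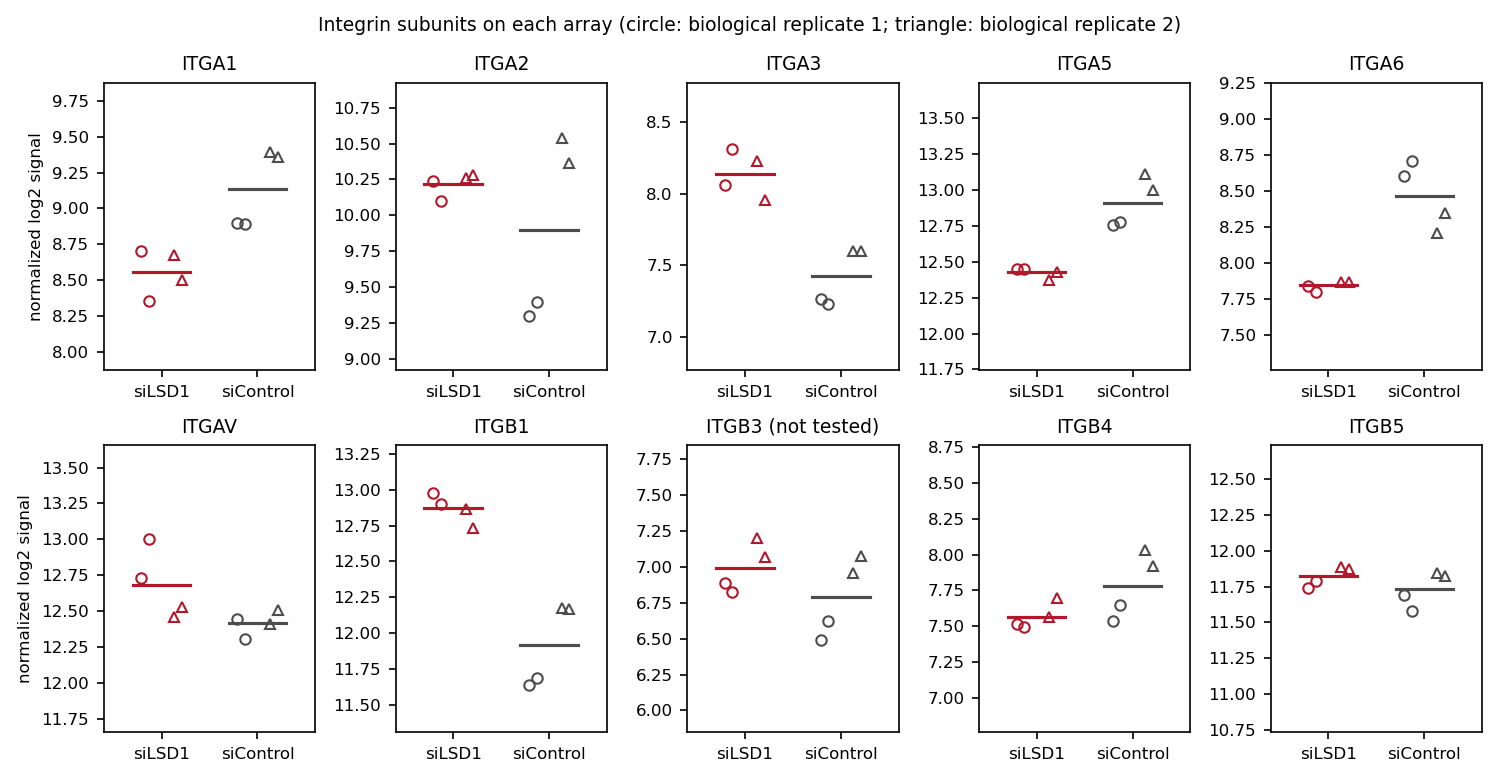
Normalized log2 signal (y axis, each panel spanning the same height) of the 10 integrin subunits on each array in siLSD1 (red, left) and siControl (grey, right); circles are the arrays of biological replicate 1, triangles those of replicate 2, and bars the group means. All siLSD1 points lie above all siControl points for ITGB1 and ITGA3 and below them for ITGA1, ITGA5 and ITGA6, while the siControl replicates of ITGA2 lie far apart.

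ITGB1 encodes the beta 1 subunit, which can pair with each of the 6 alpha subunits followed here. The bead signal before normalization was 8367 and 7622 for siLSD1 replicate 1 and 7173 and 6501 for siLSD1 replicate 2, against 3465 and 3473 for siControl replicate 1 and 4825 and 4375 for siControl replicate 2. The lowest siLSD1 array was thus brighter than the brightest siControl array. The normalized log2 level averaged 12.87 ± 0.10 in siLSD1 and 11.92 ± 0.36 in siControl (SD, n = 2 each), a difference of 0.95 ± 0.21 (limma adjusted p = 0.269), and 0.947% of all tested genes had a positive difference at least as large. The siLSD1 mean stood at 1.20 against siControl replicate 1 and at 0.70 against siControl replicate 2. When all 8 arrays entered with the technical replicates modelled, ITGB1 passed as the 1 member higher (limma adjusted p = 0.014) and 0 members passed as lower. That fit called 3.12% of all genes, 1.57% as higher and 1.55% as lower. It assumes 1 correlation between the arrays of a sample, 0.7226, for every gene. The siControl samples of ITGB1 stood 0.50 apart on the log2 scale, so its spread between biological samples may be understated.

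ITGA3 encodes alpha 3, which with beta 1 binds laminins. Its signal was low, at 325 and 361 on the arrays of siLSD1 replicate 1 and 330 and 280.3 on those of siLSD1 replicate 2, against 192 and 185 for siControl replicate 1 and 241 and 237 for siControl replicate 2. It was brighter than every ERCC row on all 4 siLSD1 arrays and on 3 of 4 siControl arrays, so the size of its difference, 0.71 ± 0.18 (limma adjusted p = 0.294), is uncertain. The difference was 0.89 against siControl replicate 1 and 0.54 against replicate 2.

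ITGA5 encodes alpha 5, which with beta 1 forms the principal fibronectin receptor. The signals were 5881 and 5715 for siLSD1 replicate 1 and 5033 and 5202 for siLSD1 replicate 2, against 7366 and 7206 for siControl replicate 1 and 9349 and 7803 for siControl replicate 2. On the normalized scale ITGA5 averaged 12.43 ± 0.03 in siLSD1 and 12.91 ± 0.21 in siControl (SD, n = 2 each), a log2 difference of -0.48 ± 0.16 (limma adjusted p = 0.381). Every siLSD1 array was dimmer than every siControl array, and the difference was -0.34 against siControl replicate 1 and -0.63 against replicate 2.

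ITGA1 encodes the collagen-binding alpha 1. Its signal was 493 and 372 for siLSD1 replicate 1 and 432 and 383 for siLSD1 replicate 2, against 524 and 501 for siControl replicate 1 and 742 and 676 for siControl replicate 2. Again no siLSD1 array reached the level of any siControl array. The log2 difference was -0.58 ± 0.20 (limma adjusted p = 0.39), with -0.34 against siControl replicate 1 and -0.81 against replicate 2.

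ITGA6 encodes alpha 6, the laminin-binding partner of beta 1 and beta 4. The signals were 285 and 261 for siLSD1 replicate 1 and 270.02 and 268 for siLSD1 replicate 2, against 430.2 and 443 for siControl replicate 1 and 352 and 365 for siControl replicate 2. Its siLSD1 arrays were nearly equal to each other and all below siControl. The difference was -0.62 ± 0.18 (limma adjusted p = 0.335), with -0.81 against siControl replicate 1 and -0.43 against replicate 2. ITGA6 was the 1 subunit of the 10 with a lower level in siControl replicate 2 than in siControl replicate 1.

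The deposited detection p-values did not follow the brightness of these rows. ITGB1, for all its signal, had detection p-values of 0.0338 to 0.0803 on siLSD1 arrays and 0.0166 to 0.0907 on siControl arrays, and ITGA6 had 0.32 to 0.593 and 0.145 to 0.288. A filter on detection p (under 0.01 on at least 4 arrays) therefore kept 6 subunits and left out ITGB1, ITGA3, ITGA6 and ITGB3. Of those 6, the groups did not overlap in 2, ITGA1 and ITGA5, and the share over all genes under this filter was not computed.

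The gene starts of the subunits whose groups did not overlap are shown for comparison of those higher in siLSD1 with those lower. From the RefSeq promoter table (build GRCh38.p14), which matched 7 of the 10 subunits (not ITGA3, ITGB3 and ITGB4), the 250 bases before the first start listed are given 5′ to 3′ on the gene's strand. They lie at chr10:32958231-32958480, minus strand, for ITGB1, chr12:54419267-54419516, minus strand, for ITGA5, chr5:52787666-52787915, plus strand, for ITGA1 and chr2:172427086-172427335, plus strand, for ITGA6. Capitals mark the GC box letters GGGCGG, the letters ACGTG, a form of the HIF core, and the CCAAT box letters CCAAT. Each was searched on both strands, and other forms of the HIF core were not searched.
ITGB1: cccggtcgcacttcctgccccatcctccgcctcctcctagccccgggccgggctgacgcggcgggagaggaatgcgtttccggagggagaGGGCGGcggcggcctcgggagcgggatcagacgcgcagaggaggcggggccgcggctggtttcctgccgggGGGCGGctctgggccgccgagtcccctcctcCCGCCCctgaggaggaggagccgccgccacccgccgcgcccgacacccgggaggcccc
ITGA5: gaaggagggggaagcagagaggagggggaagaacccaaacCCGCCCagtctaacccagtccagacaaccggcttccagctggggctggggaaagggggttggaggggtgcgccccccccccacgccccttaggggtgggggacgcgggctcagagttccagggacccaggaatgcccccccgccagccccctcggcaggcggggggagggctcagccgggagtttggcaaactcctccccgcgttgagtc
ITGA1: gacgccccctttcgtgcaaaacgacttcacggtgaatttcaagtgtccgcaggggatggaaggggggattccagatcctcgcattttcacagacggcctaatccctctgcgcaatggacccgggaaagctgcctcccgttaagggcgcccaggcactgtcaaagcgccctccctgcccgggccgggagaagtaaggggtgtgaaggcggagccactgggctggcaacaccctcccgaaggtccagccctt
ITGA6: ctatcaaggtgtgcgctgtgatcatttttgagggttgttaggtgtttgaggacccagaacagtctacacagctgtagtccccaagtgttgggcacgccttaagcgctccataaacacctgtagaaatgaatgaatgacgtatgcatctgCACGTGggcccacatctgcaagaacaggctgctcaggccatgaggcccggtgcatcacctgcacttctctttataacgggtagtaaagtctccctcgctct
The ITGB1 stretch held 3 GC boxes and was 78.4% G or C, that of ITGA5 held 1 and was 70%, and those of ITGA1 and ITGA6, at 62% and 50.8%, held 0. Over the 7 matched subunits a GC box was found in 4 (ITGA2, ITGA5, ITGB1 and ITGB5), against 42.6% of 35116 promoters, and ACGTG in 1, ITGA6, against 18.5%; its 2 matches in ITGA6 are the overlapping strands of a single palindrome. CCAAT was in 0 of 7, against 32%. A match says only that these letters occur, and both ITGB1, higher in siLSD1, and ITGA5, lower in siLSD1, hold the GC box.

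The collagen-binding alpha 2 gene, ITGA2, showed how far the siControl replicates could differ. Its signal was 1339 and 1155 for siLSD1 replicate 1 and 1184 and 1185 for siLSD1 replicate 2, against 691 and 710.02 for siControl replicate 1 and 1574 and 1294 for siControl replicate 2. On the normalized scale the siLSD1 arrays lay between the siControl replicates, which were 1.11 apart on the log2 scale (4.62% of all genes were over 2-fold apart between them). The log2 difference was 0.32 ± 0.37 (limma adjusted p = 0.818), with 0.87 against siControl replicate 1 and -0.23 against replicate 2, so ITGA2 has no settled direction.

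ITGAV, which encodes alpha V, was bright in both groups. Its signal was 7143 and 8143 for siLSD1 replicate 1 and 5341 and 5572 for siLSD1 replicate 2, against 5974 and 5288 for siControl replicate 1 and 5654 and 5513 for siControl replicate 2. The siLSD1 replicates differed from each other by more than the siControl replicates did, the arrays of the groups overlapped, and the log2 difference was 0.26 ± 0.18 (limma adjusted p = 0.667).

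The beta subunits other than beta 1 had overlapping groups. ITGB5, whose product pairs with alpha V, had signals of 3530 to 3650 in siLSD1 and 3221 to 3797 in siControl and a log2 difference of 0.09 ± 0.15 (limma adjusted p = 0.887). ITGB4, the hemidesmosome subunit, had signals of 218 to 244 in siLSD1 and 222 to 316 in siControl, near the brightest ERCC rows, and a log2 difference of -0.22 ± 0.18 (limma adjusted p = 0.739). ITGB3, the beta subunit of the platelet and endothelial vitronectin receptors, was brighter than every ERCC row on 2 of 4 siLSD1 arrays and 1 of 4 siControl arrays, with signals of 148 to 189 in siLSD1 and 128 to 177 in siControl, and was not tested. Its level was thus at or near background in both groups.

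**Figure D2:**
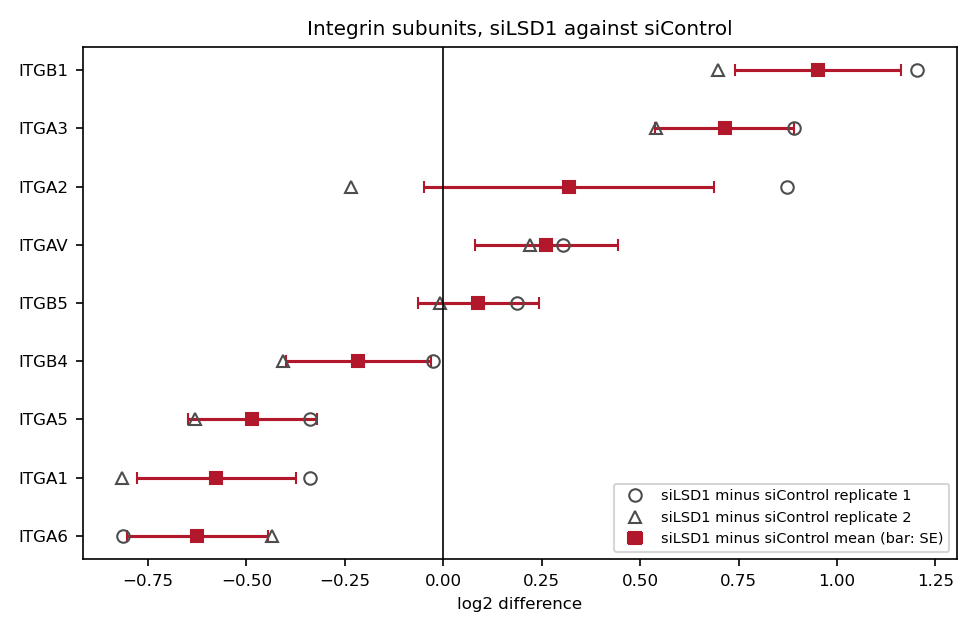
Log2 difference (x axis) of the 9 tested integrin subunits (y axis) between siLSD1 and the siControl mean, with the standard error from limma as a bar, and between siLSD1 and each siControl biological replicate (circle, triangle). Against both siControl replicates ITGB1, ITGA3 and ITGAV lie above 0 and ITGA1, ITGA5, ITGA6 and ITGB4 below it, while ITGA2 and ITGB5 lie on both sides.

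Set against each siControl replicate in turn, 7 of the 9 tested subunits kept their sign and 2, ITGA2 and ITGB5, did not. Over all tested genes 41.6% had opposite signs. ITGB4, counted as keeping its sign, stood at -0.025 and -0.41 against siControl replicates 1 and 2, and ITGB5 at 0.19 and -0.0088. Both thus lay close to 0 against 1 of the replicates. Of the 10 subunits 9 were higher in siControl replicate 2 than in replicate 1, against 48.8% of all tested genes, by 0.08 for ITGAV to 1.11 for ITGA2 on the log2 scale. This spread within siControl entered the test of each gene. Without siControl biological replicate 1, 5 subunits passed the limma test (ITGB1 and ITGA3 higher, ITGA1, ITGA5 and ITGA6 lower), against 14.5% of all genes (6.82% higher and 7.64% lower). Without siControl biological replicate 2, 4 passed (ITGB1, ITGA3 and ITGA2 higher, ITGA6 lower), against 35% of all genes (17.7% higher and 17.3% lower). Both fits take the spread from the siLSD1 pair and assume the single siControl sample to share it.

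The level of each alpha subunit relative to beta 1 was compared between the groups, since these subunits assemble into dimers. The log2 ratio of ITGA6 to ITGB1, relative to its siControl mean, was -1.67 and -1.48 in siLSD1 replicates 1 and 2, against 0.44 and -0.44 in siControl replicates 1 and 2. That of ITGA1 to ITGB1 was -1.63 and -1.43 in siLSD1, against 0.01 and -0.01 in siControl. For ITGA5 and ITGB1, the subunits of the fibronectin receptor, it was -1.48 and -1.39 in siLSD1, against 0.11 and -0.11 in siControl, a difference of -1.44. Both siLSD1 samples lay below both siControl samples for these 3 ratios and for those of ITGA2, ITGAV and ITGA3 to ITGB1, whose differences were -0.63, -0.69 and -0.24. All 6 ratios share the ITGB1 values and are described without a test; they give unequal transcript signal and not the amount of any dimer.

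**Figure D3:**
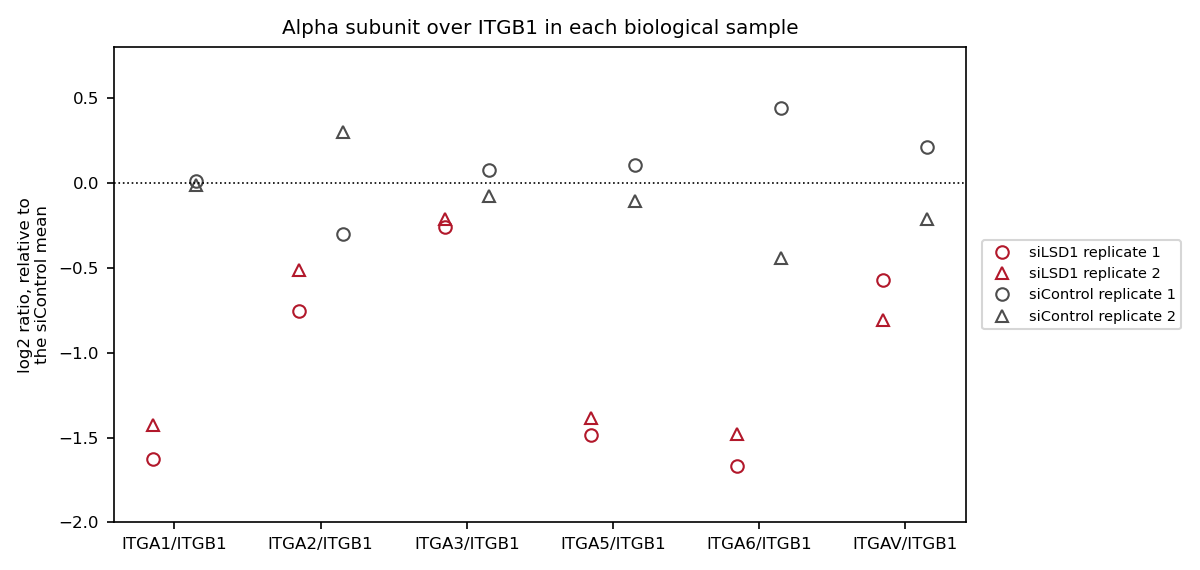
Log2 ratio of each alpha subunit to ITGB1 (y axis, relative to the siControl mean) in the 2 siLSD1 samples (red, left) and the 2 siControl samples (grey, right) of each pair; circles are biological replicate 1, triangles replicate 2. The red points lie below the grey points in all 6 pairs, by the most for ITGA6, ITGA1 and ITGA5, all of which share the ITGB1 values.

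Likeness of pattern was measured for ITGB1, the subunit with the smallest p, by Pearson's correlation of the normalized log2 values over the 8 arrays. The 5 most similar named genes were SMAD3, TUBB3, MACROH2A2, RERE and MMD, with r of 0.998, 0.995, 0.995, 0.994 and 0.994. Their log2 differences ran from 1.07 for RERE to 1.35 for MACROH2A2. In all, 418 rows had r over 0.95. The 8 arrays come from 4 biological samples, and the arrays of a sample share its RNA, so these values describe the arrays and carry no test.

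Of 17 genes listed as other integrin subunits, which include the integrin-like ITGBL1 (not tested), 8 were tested. Of these 8, 0 were called, 2 had higher and 6 lower estimates, and 0 were without overlap between the groups, against 23.5% of all tested genes. Their median log2 difference was -0.10, and it was -0.20 and -0.03 against siControl replicates 1 and 2. ITGAE, the alpha E subunit, had signals of 2289 to 3503 and a difference of -0.02 ± 0.18. ITGB2, the leukocyte beta 2 subunit, stood at -0.19 ± 0.14 with signals of 452 to 595, and ITGA4, the alpha 4 subunit, at -0.25 ± 0.16. ITGA7, ITGA9, ITGA10, ITGAL and ITGB7 had signals of 135 to 239, close to the ERCC rows, and differences of -0.21 to 0.10. The limma adjusted p of these 8 genes ran from 0.649 to 0.989.

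Among the ligands, RGD and fibrin ligands had 7 higher and 4 lower estimates of 11 tested, a median log2 difference of 0.58, 0 called, and 5 genes with all siLSD1 arrays above all siControl arrays, against 12% of all tested genes. Against siControl replicates 1 and 2 that median was 0.20 and 0.98. MFGE8, a secreted protein that binds alpha V integrins, had signals of 1230 and 1369 for siLSD1 replicate 1 and 1481 and 1435 for replicate 2, against 652 and 744 for siControl replicate 1, with 741 and 710 for siControl replicate 2. Its groups were well apart and its difference of 1.03 ± 0.17 (limma adjusted p = 0.234) was alike against both siControl replicates, at 1.06 and 0.99. Osteopontin (SPP1) stood at 0.81 ± 0.23, the fibrinogen gamma chain (FGG) at 1.04 ± 0.30 and tenascin C (TNC) at 0.37 ± 0.15, with limma adjusted p of 0.335 to 0.457. Fibronectin (FN1) stood at 0.17 against siControl replicate 1 and -0.19 against replicate 2, and vitronectin (VTN) at 0.34 and -0.43. FGA, the gene whose difference is the list median, stood at -0.42 and 1.6, and THBS1 at -0.05 and 1.26. CCN1 stood at -1.86 and 0.98, and CCN2 at -0.69 and 0.31. None of these genes has a settled direction.

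Most tested collagen and laminin genes had lower estimates, none past the test. Of 12 listed collagen ligands 4 were tested, and of 14 listed laminins and basement membrane genes 10 were. Collagen ligands had 1 higher and 3 lower estimates of 4 tested (median -0.20, 0 called), with COL5A2 at -0.51 ± 0.32 (-0.05 and -0.96 against siControl replicates 1 and 2), COL4A1 at -0.22 ± 0.14, COL4A2 at -0.18 ± 0.21 and COL18A1 at 0.19 ± 0.31. Laminins and basement membrane genes had 2 higher and 8 lower estimates of 10 tested (median -0.17, 0 called). That median was -0.07 and -0.23 against siControl replicates 1 and 2, and the collagen median was -0.05 and -0.29. COL18A1, LAMA5, LAMB1, NID1 and AGRN had opposite signs against the siControl replicates. LAMA4 stood at -0.51 ± 0.15, LAMC1 at -0.48 ± 0.23, LAMB2 at -0.39 ± 0.20 and LAMB3 at -0.41 ± 0.28 (-0.78 and -0.04 against siControl replicates 1 and 2). The limma adjusted p of these 8 genes ran from 0.335 to 0.886, and the groups did not overlap in 3 of the 14 tested genes of both lists (COL4A1, LAMA4 and LAMB2), against 23.5% of all tested genes.

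Genes of proteins that bind integrin tails had estimates on both sides of 0. Activators and inhibitors at the tail had 5 higher and 8 lower estimates of 13 tested (median -0.11, 0 called). SHARPIN, which restrains beta 1 activation, stood at -0.43 ± 0.17, the kindlin FERMT2 at -0.37 ± 0.17, talin 1 (TLN1) at -0.21 ± 0.21 and RAP1B at 0.22 ± 0.21. Focal adhesion adaptors and kinases had 9 higher and 15 lower estimates of 24 tested (median -0.06, 0 called). That median was -0.06 and 0.05 against siControl replicates 1 and 2. ILK, the pseudokinase that binds beta tails, had signals of 3240 and 2831 for siLSD1 replicate 1 and 2756 and 2631 for replicate 2, against 4903 and 5558 for siControl replicate 1, with 4789.6 and 4285 for siControl replicate 2. No siLSD1 array reached the dimmest siControl array, and ILK stood at -0.72 ± 0.14 (limma adjusted p = 0.238), with -0.77 and -0.67 against siControl replicates 1 and 2. Vinculin (VCL) stood at -0.86 ± 0.33, with -1.35 and -0.37 against siControl replicates 1 and 2, ARHGEF7 at 0.35 ± 0.16 and NEDD9 at 0.29 ± 0.14.

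Partners in the membrane had larger estimates in both directions. Lateral membrane partners had 8 higher and 8 lower estimates of 16 tested (median -0.03, 0 called). That median was 0.07 and -0.08 against siControl replicates 1 and 2. All siLSD1 arrays lay above siControl in 4 and below in 5, against 12% and 11.5% of all tested genes. SDC4, the syndecan that cooperates with alpha 5 beta 1 on fibronectin, had signals of 4006 and 4079 for siLSD1 replicate 1 and 3925 and 3807 for replicate 2, against 2364 and 2140 for siControl replicate 1, with 2267 and 1949 for siControl replicate 2. Its difference was 0.94 ± 0.14 (limma adjusted p = 0.199), 0.94 against each siControl replicate. The tetraspanin TSPAN4 stood at -1.27 ± 0.27, with -1.65 and -0.89, the hyaluronan receptor CD44 at 0.53 ± 0.16 and the growth factor receptor MET at 0.50 ± 0.17. Hemidesmosome genes had 1 higher and 2 lower estimates of 3 tested (median -0.24, 0 called), with CD151, the tetraspanin bound to laminin-binding integrins, at -0.36 ± 0.16, DST at -0.24 ± 0.14 and COL17A1 at 0.27 ± 0.14. Integrin traffic genes had 5 higher and 4 lower estimates of 9 tested (median 0.02, 0 called), with DAB2, an endocytic adaptor of beta 1, at 0.72 ± 0.16, the recycling GTPase RAB11A at 0.52 ± 0.15, NUMB at 0.25 ± 0.14 and ARF6 at -0.26 ± 0.15. With the technical replicates modelled, 7 of the 98 tested genes of these lists passed, against 3.12% of all genes. SPP1, FGG, MFGE8, SDC4 and DAB2 passed as higher and ILK and TSPAN4 as lower. The limit of that fit given for ITGB1, 1 correlation for every gene, holds here too.

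**Figure D4:**
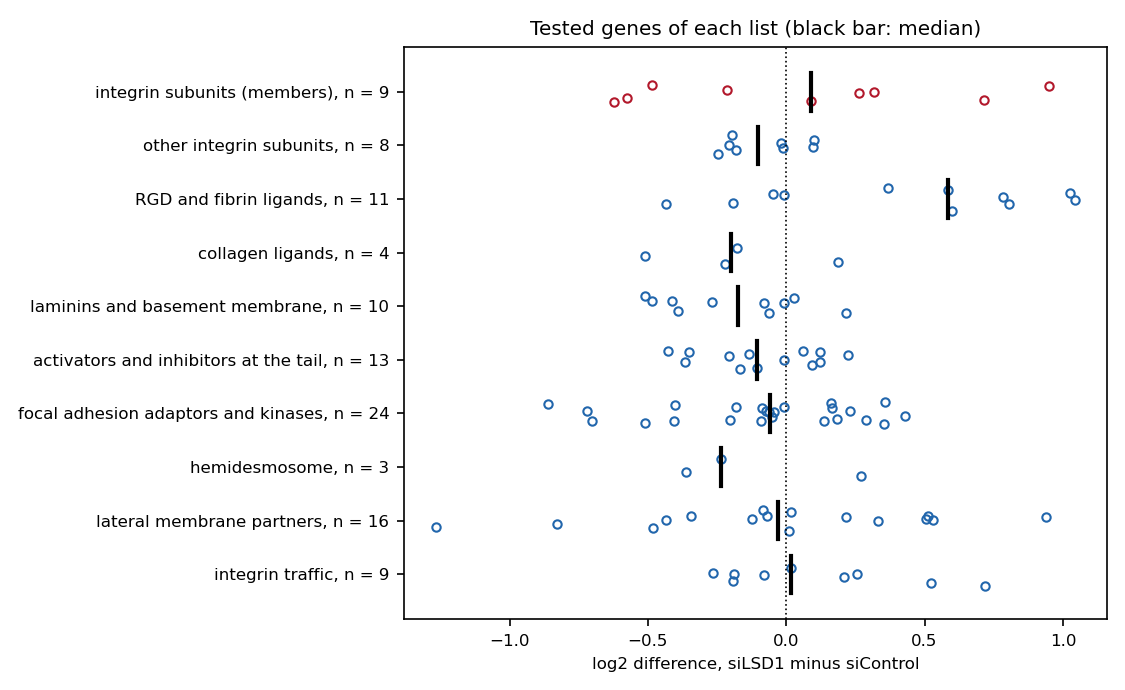
Log2 difference between siLSD1 and siControl (x axis) of each tested gene (circles) of the integrin subunits and of 9 lists of related genes (y axis, with the number tested); the black bar is the median. The subunits spread on both sides of 0 with a median of 0.09, and the median of the RGD and fibrin ligands is 0.58. That median is the difference of FGA, which stood at -0.42 and 1.6 against siControl replicates 1 and 2.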

How the data were processed

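Total RNA of 8 arrays (4 biological samples) was measured on Illumina bead arrays. The authors deposited linear bead intensity before normalization, 1 row per gene symbol (34694 rows), with a detection p-value per row and array deposited beside it; BeadStudio 3.1.1.0 was used, per the submitters' processing notes. A second table deposited by the authors holds normalized intensity (34687 rows). How probes were summarised, and the normalization, are not given in the sources used here.

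Intensities were background-corrected (normexp, offset 50), quantile-normalized and put on the log2 scale. Rows brighter than all 92 ERCC control rows of their array on at least 4 of 8 arrays were tested, because the detection p-values did not rank the signals. After averaging technical arrays, the 2 siLSD1 samples were tested against the 2 siControl samples with the two-sided moderated test of limma (version 3.58.1, functions lmFit and eBayes, R version 4.3.3) and Benjamini-Hochberg adjustment over 16049 rows at a threshold of 0.05. The steps were also run on simulated data with the same spread in both groups. Such a run cannot show how they perform with the wider siControl spread seen here. Row names were updated with RefSeq symbols (GRCh38.p14): 17762 rows had a current symbol, 2735 an older one, 720 an ambiguous one and 13385 no match. Genes with near-identical copies may share probes.

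The members, lists and filter were chosen with earlier results of these data known. The genes named were all members and every other tested integrin subunit. Of each list they were any called gene or otherwise the up to 4 with the smallest p. FN1, VTN, FGA, THBS1, CCN1, CCN2, LAMA5, LAMB1, NID1 and AGRN were added after their values were seen. The alternatives tried were neqc, the authors' normalized values, median scaling, an offset of 16, 3 other filters, technical replicates modelled by duplicateCorrelation, a replicate block, and leaving out each sample or array. No slide or scan date was used.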

Additional observations from a re-analysis of the deposited data

How the results depend on the processing

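The directions of the 9 tested subunits were the same under neqc, the authors' normalized values, median scaling and an offset of 16. The other filters, technical replicates modelled and the replicate block keep the same log2 differences by construction, so they could not change a direction. Under neqc, which takes its background from the detection p-values, ITGA3, ITGA6 and ITGA1 stood at 0.06, -0.07 and -0.11. Calls at an adjusted p of 0.05 appeared with technical replicates modelled (501 genes, 1 of them a member, ITGB1) and ranged from 0 to 5617 genes and from 0 to 5 members when samples or arrays were left out, the high ends coming without a siControl biological replicate. The adjusted p of ITGB1 ran from 1.48e-07 without siControl biological replicate 2 to 1.00 without siLSD1 biological replicate 1. Subunits without overlap between arrays numbered 2 with the detection filter, which tests 6 of them. With a signal above every ERCC row required on all arrays they numbered 4 of 8. They numbered 5 to 8 with samples or arrays left out, where fewer arrays make non-overlap more common for any gene. The share over all genes in these settings was not computed, so these counts stand without a comparison. With no filter ITGB3 stood at 0.21 (adjusted p = 0.898).

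The replicate numbers are shared by the groups, but no label says that they mark a shared day; the deviations of same-numbered samples correlated at 0.121 over genes, and the fit with the number as a replicate block also called 0 genes. Leaving out samples or arrays in turn reversed these log2 differences, given as lowest and highest: ITGA2 -0.23 and 0.87, ITGB5 -0.0088 and 0.19, ITGA7 -0.096 and 0.072, ITGA10 -0.20 and 0.39, ITGAE -0.20 and 0.16, ITGAL -0.26 and 0.46, ITGB7 -0.40 and 0.034, COL4A2 -0.40 and 0.042, COL18A1 -0.27 and 0.64, RAP1B -0.033 and 0.48, TLN1 -0.46 and 0.047, FN1 -0.19 and 0.17, and VTN -0.43 and 0.34. FGA, THBS1, CCN1, CCN2, LAMA5, LAMB1, NID1 and AGRN, whose signs against the siControl replicates are given above, are not in this list. FN1 stood at 0.0028 with the authors' normalized values, against -0.0093 with normexp and quantile normalization. The cause was not tested. ITGA3, ITGA6 and ITGB4 lie close to background signal, which limits their sizes.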
